A study of Mus musculus with 16 samples.

Results

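The presynaptic active zone scaffold genes Rims1, Rims2, Bsn, Pclo, Unc13a, Erc1 and Erc2 were followed on exon arrays of embryonic mouse brain and spinal cord that carried or lacked the splicing factors Nova1 and Nova2. The 7 genes were taken by symbol from 14570 genes with a measured level. Of the 625534 deposited probe sets, 301 named one of these genes and no other, and 280 of the 301 lay above the floor used for dim probe sets. A probe set is a small group of array probes that reads a short stretch of a transcript, usually within one exon. RNA came from CD1 mice, an outbred strain, at age E18.5, shortly before birth. Whole brain and spinal cord were each taken from wild type and from Nova1/2 double knockout mice, which gives 4 groups of 4 arrays, with 1 array for each biological replicate. Strain and age were shared by all 4 groups. The sources used here do not give what the Nova alleles remove.

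The active zone is the patch of presynaptic membrane where synaptic vesicles dock, become ready for fusion and release transmitter. RIM proteins, encoded by Rims1 and Rims2, sit at its centre and link vesicle-bound Rab3 to the priming factor Munc13 and to calcium channels. Bassoon (Bsn) and Piccolo (Pclo) are very large cytomatrix proteins that help to assemble the zone, Munc13-1 (Unc13a) makes docked vesicles ready for fusion, and the ELKS/CAST proteins (Erc1, Erc2) bind RIM and the large scaffolds. Nova1 and Nova2 are RNA-binding proteins of neurons that control alternative splicing and other steps of RNA processing.

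Values are log2 of the deposited intensity plus 16, so differences of dim probe sets are understated. A gene level is the median over the probe sets of a gene on one array. An exon index is a probe set's log2 value after subtraction of that array's gene level, so it moves when a stretch of the transcript changes against the rest of the gene. A changed index can come from a cassette exon, another transcript start or end, or a sequence variant under the probes. These were not told apart, since positions of the probe sets were not used here. A feature was called when its limma p, adjusted over all features of the comparison (Benjamini-Hochberg, two-sided), was under 0.05. Levels of different genes are not comparable on this scale.

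The labels were checked on the targeted genes. The Nova1 level was 10 to 10.72 on wild type brain arrays and 4.64 to 5.51 on double knockout brain arrays, and 11.52 to 11.94 against 6.28 to 6.54 in spinal cord. The Nova2 level was 8.45 to 8.79 against 7.77 to 8.03 in brain and 8.23 to 8.63 against 7.17 to 7.41 in spinal cord, without overlap. The median intensity was 72.3 to 82.9 over the brain arrays and 99.5 to 116.2 over the spinal cord arrays. The pan-neuronal markers (14 of 16 tested, none with a group mean under the floor) had summed intensities of 40900 to 42100 in wild type brain, 39500 to 41800 in double knockout brain, 32300 to 38600 in wild type spinal cord and 30700 to 35500 in double knockout spinal cord. Brain number 3 stood apart in both genotypes: the summed telencephalon markers (9 of 12 tested) were 1910 and 3650 there and 8490 to 10500 on the other 6 brain arrays, while the 8 spinal cord arrays had 1400 to 1880. The posterior Hox genes, all 18 tested, summed to 1100 to 2940 in brain and 12000 to 15200 in spinal cord. Muscle markers (13 of 15 tested) summed to 5480 to 13700 on 4 spinal cord arrays (wild type 1 and 4, double knockout 2 and 4) and to 1920 to 2910 on the other 4. The tissues were whole pieces, so fewer cells of a type and less RNA per cell cannot be told apart.

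Rims1, the gene of the central organizer RIM1, was the 1 member whose level was separate between the genotypes in both tissues. Most of its probe sets were lower in the double knockout in both tissues, while 5 were higher in both. The Rims1 gene level was 9.4, 9.27, 9.76 and 9.32 on the wild type brain arrays and 8.82, 8.92, 9.15 and 8.99 on the double knockout brain arrays. Spinal cord levels were 9.66, 9.33, 9.5 and 9.55 in wild type and 9.19, 9.09, 9.21 and 9.18 in the double knockout. Every double knockout array lay below every wild type array in both tissues. Such separation of gene levels occurred for 4% of all genes in brain and for 11.5% in spinal cord.

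The brain difference in Rims1 level was -0.47 (SE 0.111, 95% interval -0.7 to -0.23), 1.38-fold lower in the double knockout, with an adjusted p of 0.109. With the replicate number as a block, the same difference had an adjusted p of 0.0483. The block treats same-numbered brain arrays as pairs, which the labels do not state. The spinal cord difference was -0.34 (SE 0.111, interval -0.57 to -0.11), 1.27-fold lower, with an adjusted p of 0.0801. Neither tissue alone therefore passed the threshold without the block. The mean of the brain and spinal cord differences, a comparison added after the separate ones had been seen, was -0.4 (SE 0.0787) with an adjusted p of 0.00457. That call ended without a floor (-0.36, adjusted p 0.0669) and without the 4 muscle-rich spinal cord arrays (-0.34, adjusted p 0.126). When the level was a mean over probe sets, which gives weight to the 5 higher ones, the Rims1 values became -0.27 (brain) and -0.23 (spinal cord). When all called probe sets were left out of the level they were -0.48 (brain) and -0.37 (spinal cord).

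The opposite movement within Rims1 was visible in the probe sets' own log2 values, before any index was formed. Of its 43 probe sets above the floor, 33 were lower in the double knockout in both tissues, 5 were higher in both and 5 went opposite ways. In brain 27 of the 43 had arrays that did not overlap between genotypes, 22 of them lower and 5 higher. For spinal cord the count was 20 of 43, 16 lower and 4 higher. Over all probe sets above the floor the arrays did not overlap for 3.68% in brain and 9.78% in spinal cord. Probe sets of a gene share its arrays and its level. Such counts, here and for the other members, are therefore not counts of independent observations. The 5 probe sets later called on the exon index were higher by 0.6 to 1.02 in brain and by 0.42 to 0.78 in spinal cord on their own log2 values. The other 38 had a median difference of -0.48 in brain, where 36 were lower, and of -0.38 in spinal cord, where 35 were lower.

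**Figure D1:**
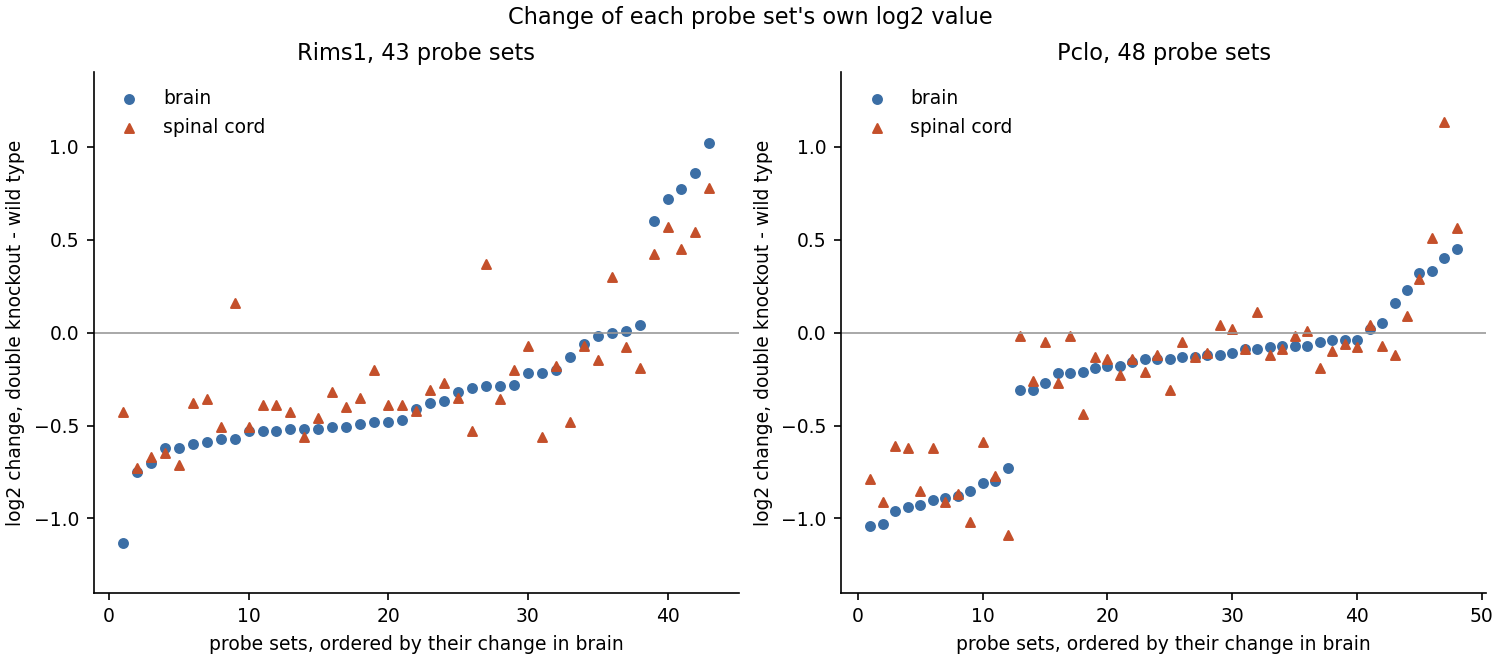
Double knockout minus wild type difference of each probe set's own log2 value (y axis, log2 units) for Rims1 (43 probe sets) and Pclo (48), ordered along the x axis by the brain value. Circles are brain and triangles spinal cord, each the difference of 2 group means of 4 arrays. In both genes most points lie below 0. In both tissues 5 Rims1 and 2 Pclo probe sets lie above 0.4, and 7 Rims1 and 12 Pclo probe sets lie below -0.5.

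On the exon index 8 of the 280 member probe sets were called in brain (2.86%, against 0.15% of all 193126 probe sets) and 11 in spinal cord (3.93%, against 0.388%). All belonged to Rims1 or Pclo. Each of the 8 brain calls was also called in spinal cord with the same sign, which is 100% of the brain calls and 72.7% of the spinal cord calls. Over all genes 184 probe sets were called in both tissues with the same sign, 63.4% of the brain calls and 24.5% of the spinal cord calls. The brain and spinal cord genotype comparisons share no array, but limma fitted all arrays together. Both comparisons therefore used the same estimate of each probe set's spread, and their calls are not independent. With each tissue fitted alone, Rims1 probe sets 4421161, 5111841 and 5504052 stayed called in both tissues. The other brain calls then ended in brain, in spinal cord or in both. Rims1 is among the 6 of 12340 genes that had 5 or more probe sets called with the same sign in both tissues, and Pclo among the 15 that had 3 or more. These counts do not allow for the number of probe sets of a gene. Rims1 had 43 and Pclo 48, while a gene needed only 5 to be included. In the test of the tissue difference of the change 0 of the 280 were called by limma, as against 0.000518% of all probe sets. At an unadjusted p under 0.05 there were 20 of the 280 (7.14%), and 10955 of all 193126 probe sets.

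The 5 called Rims1 probe sets were the same in brain and spinal cord and all rose in the double knockout. Probe set 4421161 had an index of 0.24, 0.29, 0.03 and -0.06 on wild type brain arrays and 1.63, 1.62, 1.46 and 1.1 on double knockout brain arrays. In spinal cord it was -0.13, 0, -0.19 and -0.25 in wild type and 0.76, 0.81, 0.7 and 0.7 in the double knockout. In both tissues all double knockout arrays lay above all wild type arrays. The rise was 1.33 in brain (SE 0.116, adjusted p 2e-05) and 0.88 in spinal cord (adjusted p 0.0021).

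Probe set 5504052 gave the tightest arrays of the 5 in brain. Its index was 1.19, 1.07, 0.93 and 1.12 in wild type brain and 2.22, 2.24, 2.16 and 1.97 in double knockout brain. In spinal cord it was 0.65, 0.92, 0.82 and 0.85 in wild type and 1.64, 1.6, 1.38 and 1.64 in the double knockout. The genotypes were again separate, with a rise of 1.07 in brain (SE 0.0949, adjusted p 2.39e-05) and 0.76 in spinal cord (adjusted p 0.00128). Probe set 5111841 had an index of 0.32, 0.76, 0.19 and 0.38 in wild type brain and 1.93, 1.74, 1.56 and 1.38 in double knockout brain. Its spinal cord index read 0.68, 0.67, 0.67 and 0.63 in wild type and 1.47, 1.46, 1.46 and 1.41 in the double knockout. It rose by 1.24 in brain (SE 0.121, adjusted p 7.22e-05) and by 0.79 in spinal cord (adjusted p 0.00744), and the spinal cord arrays of a group differed little from each other.

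The remaining called Rims1 probe sets had the lowest indices of the 5 in wild type tissue, so they lay well under the level of the gene. Probe set 4754988 had an index of -1.52, -1.37, -2.02 and -1.78 in wild type brain and -0.25, -0.35, -0.56 and -0.79 in double knockout brain, and from -2.38 to -1.52 against -1.21 to -1 in spinal cord. Probe set 5608192 had -2.63, -2.23, -3.13 and -2.83 in wild type brain and -0.94, -0.78, -1.28 and -1.85 in double knockout brain, and from -2.69 to -2.08 against -1.38 to -1.11 in spinal cord. No genotype overlapped the other in either tissue at these probe sets. The wild type brain signal of 5608192 was at the floor of 6.73 (own log2 values 6.49 to 7.04, mean 6.73). The rises were 1.19 (adjusted p 0.00527) and 1.49 (adjusted p 0.00423) in brain, and 0.91 (adjusted p 0.0335) and 1.12 (adjusted p 0.0325) in spinal cord.

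The brain calls of 4421161, 5111841 and 5504052 held in every alternative run. Those of 4754988 and 5608192 ended when the brain arrays were fitted alone (adjusted p 0.0532 and 0.155) and without both number 3 brain arrays (0.0655 and 0.0578), where the rises were 1.09 and 1.37. Their spinal cord calls ended without any single double knockout array and without wild type array 2, 3 or 4, with adjusted p between 0.0562 and 0.112, and with a sex term (0.0606 and 0.0595), and that of 4754988 also with spinal cord arrays alone (0.137). Without the 4 muscle-rich arrays all 5 spinal cord calls ended while the rises were 0.82, 1.08, 0.79, 0.64 and 1.15 in order of probe set number, in a fit that called 111 probe sets in place of 750. With the mean of the tissues a sixth Rims1 probe set, 5481412, was called, and it fell by 0.28 (SE 0.0537, adjusted p 0.0245). That call ended with the replicate block (0.122), with a sex term (0.104), without both number 3 brain arrays (0.108) and without the muscle-rich arrays (0.118). It also ended without wild type brain 1 or 3, any single double knockout brain array, or double knockout spinal cord 1, 2 or 3 (0.0505 to 0.0593).

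**Figure D2:**
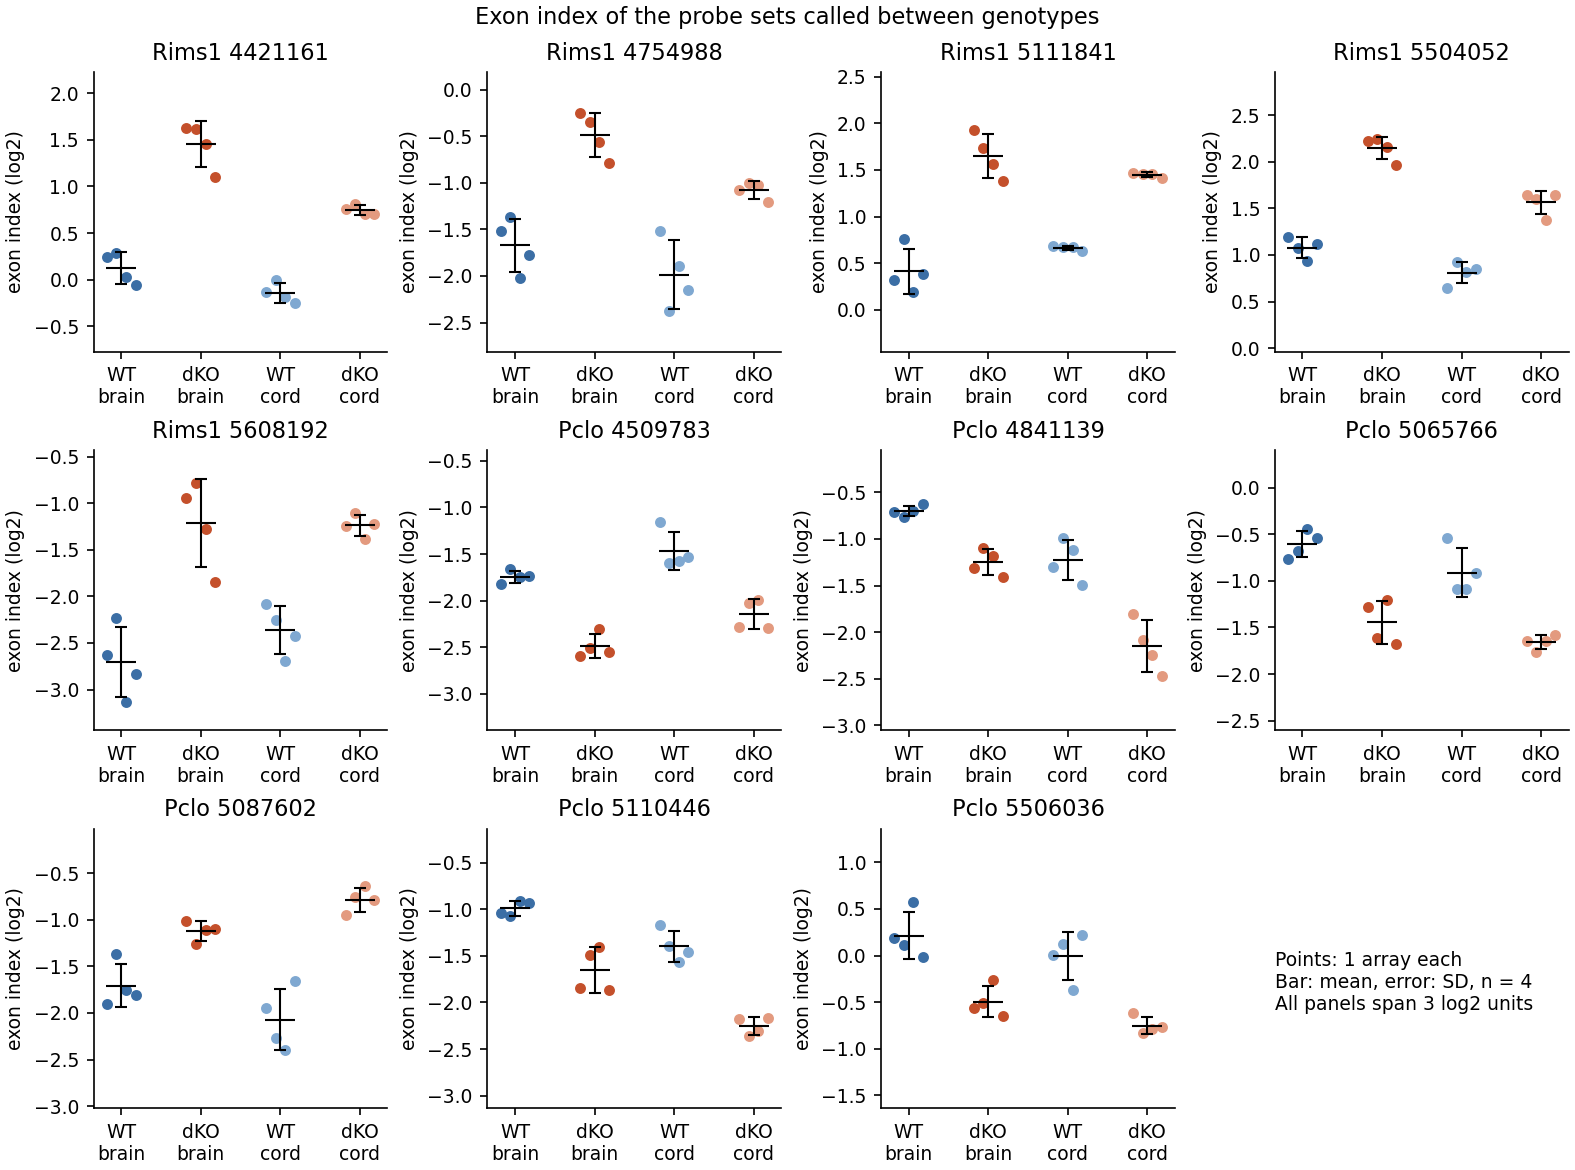
Exon index (y axis, log2 units) of the 5 Rims1 and 6 Pclo probe sets called between genotypes in brain or spinal cord. Points are single arrays, bars the mean and SD of 4, and every panel spans 3 log2 units. The Rims1 panels are higher in the double knockout in both tissues, and in Pclo all are lower except 5087602.

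Rims2, which encodes the related scaffold RIM2, had no called change in either tissue alone. Its gene level was 8.73 ± 0.158 (SD, n = 4) in wild type brain and 8.84 ± 0.173 in double knockout brain, and 9.12 ± 0.236 against 9.22 ± 0.0477 in spinal cord. The differences of 0.11 (95% interval -0.14 to 0.36, adjusted p 1) and 0.09 (interval -0.15 to 0.34, adjusted p 0.737) were within the spread, and arrays overlapped. Of its 45 probe sets 26 were higher in both tissues and 4 lower in both. None of its index changes was called in either tissue (4 in brain and 10 in spinal cord at an unadjusted p under 0.05). The 4 and 10 are 8.89% and 22.2% of its probe sets. Over all 193126 probe sets 6373 in brain and 22720 in spinal cord were under that p. With the mean of the tissues 2 Rims2 probe sets were called. Probe set 5016855 rose by 0.45 (SE 0.0761, adjusted p 0.0102), from -1.34 to -1 in wild type brain to -0.97 to -0.46 in double knockout brain and from -1.16 to -0.92 to -0.66 to -0.52 in spinal cord, with no overlap. Probe set 4471684 fell by 0.55 (SE 0.11, adjusted p 0.0367), and its genotypes overlapped in spinal cord. The call of 4471684 ended with the block (0.0731) and without any single array other than wild type brain 2 and wild type spinal cord 2 and 3. It also ended with a sex term (0.148), without both number 3 brain arrays (0.135) and without the muscle-rich arrays (0.277). That of 5016855 ended without the muscle-rich arrays (0.152).

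Pclo, the gene of Piccolo, had no called change of its level, while some of its probe sets fell against the rest. The Pclo level was 9.33, 9.37, 9.83 and 9.47 in wild type brain and 9.25, 9.31, 9.41 and 9.3 in double knockout brain. In the spinal cord groups it was 10, 9.67, 9.72 and 9.72 in wild type and 9.67, 9.45, 9.77 and 9.57 in the double knockout. The genotypes overlapped in both tissues. The differences were -0.18 in brain (interval -0.42 to 0.05, adjusted p 1) and -0.16 in spinal cord (interval -0.4 to 0.07, adjusted p 0.47), and neither passed the test.

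On the own log2 values of the 48 Pclo probe sets 36 were lower and 6 higher in both tissues, and 12 of the 36 were lower by more than 0.5 in both. Differences within 0.25 of zero in both tissues were seen for 26 of the 48. By the same counts Rims1 had 33 of 43 probe sets lower and 5 higher in both tissues. Of its 43, 7 were lower by more than 0.5 in both and 6 lay within 0.25 of zero in both. Most probe sets were thus lower in both genes, and more of those of Pclo lay near zero. Of the Pclo probe sets 13 did not overlap between genotypes in brain (11 lower, 2 higher) and 14 in spinal cord (10 lower, 4 higher). Over all probe sets above the floor the shares were 3.68% and 9.78%. The 42 that were not called in either tissue had median differences of -0.13 and -0.11 in brain and spinal cord, with ranges of -1.04 to 0.45 and -0.87 to 0.56. They thus reached as low in brain as the 5 called lower on the exon index, which lay between -1.03 and -0.73.

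Probe set 4509783 had a Pclo index of -1.82, -1.66, -1.75 and -1.74 in wild type brain and -2.59, -2.51, -2.3 and -2.55 in double knockout brain. Its spinal cord values were -1.16, -1.6, -1.57 and -1.53 in wild type and -2.28, -2.03, -1.99 and -2.29 in the double knockout. No array of one genotype reached the other. The own log2 mean of this probe set in double knockout brain was 6.83, near the floor of 6.73. The fall was -0.75 in brain (SE 0.11, adjusted p 0.00515) and -0.69 in spinal cord (adjusted p 0.0102). With the replicate block the brain call ended (adjusted p 0.0954). The spinal cord call ended with the block (0.0684), with spinal cord arrays alone (0.138) and without the muscle-rich arrays (-0.55, 0.222).

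Probe set 5065766 fell by 0.84 in brain (adjusted p 0.0104), from between -0.76 and -0.44 to between -1.68 and -1.21. In spinal cord the index fell by 0.75 (adjusted p 0.0219), from between -1.09 and -0.54 to between -1.76 and -1.58. Its brain call ended without double knockout brain 2 (adjusted p 0.0564) or wild type brain 4 (0.0536) and with brain arrays alone (0.0832). Its spinal cord call ended without double knockout spinal cord 2, 3 or 4 (0.0817, 0.0643 and 0.0579), with the block (0.0533), with spinal cord arrays alone (0.118) and without the muscle-rich arrays (-0.56, 0.308). Probe set 5110446 fell by 0.67 in brain (adjusted p 0.024), from between -1.07 and -0.91 to between -1.87 and -1.4, and by 0.86 in spinal cord (adjusted p 0.00252), from between -1.57 and -1.17 to between -2.36 and -2.17. The brain call of 5110446 was the least stable: it ended without any single wild type brain array, without double knockout brain 1 or 4, with brain arrays alone (adjusted p 0.202), after quantile normalization (0.102), with a sex term (0.08), without both number 3 arrays (0.0504) and with the replicate block (0.099). Its spinal cord call ended without the muscle-rich arrays (-0.77, 0.169).

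Further Pclo probe sets passed the threshold in spinal cord and not in brain, with no called difference between the tissues. Probe set 4841139 was at -1.3, -0.99, -1.12 and -1.49 in wild type spinal cord and -1.81, -2.08, -2.24 and -2.47 in the double knockout, a fall of 0.93 (adjusted p 0.00415). This call ended with spinal cord arrays alone (adjusted p 0.108) and without the muscle-rich arrays (0.0603). Its brain change of -0.55 was not called. Probe set 5506036 fell by 0.74 in spinal cord (adjusted p 0.0291), a call that ended without wild type 1, 2 or 4 or double knockout 2, 3 or 4 (adjusted p 0.059 to 0.101), with spinal cord arrays alone (0.122) and without the muscle-rich arrays (-0.58, 0.392).

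One Pclo probe set moved the other way. Probe set 5087602 was at -1.95, -2.27, -2.4 and -1.66 in wild type spinal cord and -0.95, -0.75, -0.64 and -0.79 in the double knockout, a rise of 1.29 (SE 0.148, adjusted p 0.000529) that was called in all 15 alternatives. In brain it rose by 0.58 without passing the test (adjusted p 0.349). The tissue difference of that change was 0.7 (SE 0.209, adjusted p 0.792). With the mean of the tissues 14 Pclo probe sets were called, 4 higher and 10 lower, against 0.432% of all probe sets. The largest rises there were 5087602 (0.94), 4659133 (0.68) and 5471485 (0.59), and the largest falls 5065766 (-0.8), 5110446 (-0.76) and 5260711 (-0.74). The calls of 4659133, 5471485 and 5260711 ended with the replicate block (adjusted p 0.0885, 0.13 and 0.0718). So did those of 4419602, 5036000 and 4674607 (0.178, 0.154 and 0.15), which ended in 13, 14 and 9 of 24 alternatives. Near or under the floor of 6.73 lay 4659133 in wild type brain (own log2 mean 6.75) and 5260711 in double knockout brain and spinal cord (6.39 and 6.31). Those of 4659133 and 5471485 also ended when single arrays were left out, among them brain arrays wild type 4 and double knockout 1, 2 and 4 and spinal cord arrays wild type 4 and double knockout 2 and 4 for both (adjusted p 0.0566 to 0.0992).

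The index changes of Rims1 and Pclo ran parallel in the tissues across each gene. Over the 43 Rims1 probe sets the brain and spinal cord changes had a Pearson r of 0.84, and over the 48 of Pclo an r of 0.9. For Rims2 r was 0.52, for Bsn -0.38, for Unc13a -0.05, for Erc1 0.03 and for Erc2 -0.01. The median over the 3135 genes with 20 or more probe sets was 0.12, and 62 of them (1.98%) exceeded 0.8. These are descriptions over probe sets, which share the gene level and the arrays of their gene.

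**Figure D3:**
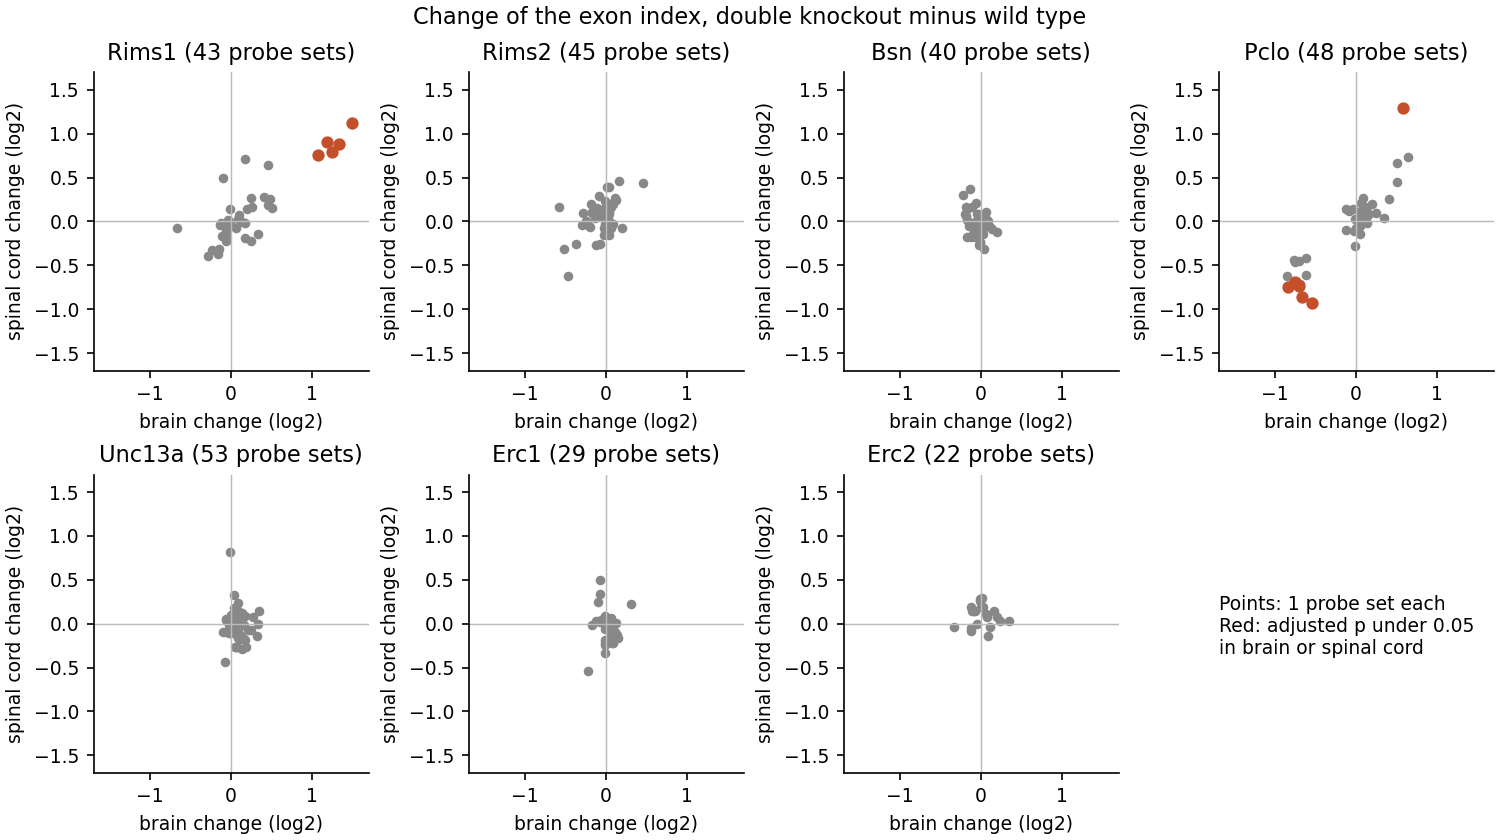
Change of the exon index (double knockout minus wild type, log2 units) in brain (x axis) and spinal cord (y axis) for every probe set above the floor of the 7 genes. Each point is 1 probe set and red points were called in brain or spinal cord. Called points appear in Rims1 (5, upper right) and Pclo (5 at lower left and 1 at upper right), and the other 5 genes lie around 0.

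Bsn, the gene of Bassoon, had a level in brain of 8.37 ± 0.18 in wild type and 8.41 ± 0.048 in the double knockout. Its level in spinal cord was 8.72 ± 0.214 and 8.53 ± 0.159. The differences were 0.04 (interval -0.2 to 0.28, adjusted p 1) and -0.19 (interval -0.43 to 0.05, adjusted p 0.404). In spinal cord 37 of its 40 probe sets had a lower mean in the double knockout, with 1 separated, and in brain 21 of 40 with none separated. Over all probe sets 9.78% were separated in spinal cord and 3.68% in brain. Its index changes stayed between -0.22 and 0.2 in brain, and none was called in either tissue.

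Unc13a, which encodes the priming factor Munc13-1, had a level of 9.17 ± 0.135 and 9.09 ± 0.141 in brain and of 9.32 ± 0.178 and 9.19 ± 0.0847 in spinal cord, wild type first. The differences of -0.08 (interval -0.3 to 0.14) and -0.13 (interval -0.35 to 0.09, adjusted p 0.568) did not pass. Of its 53 probe sets 47 had a lower mean in the double knockout spinal cord and 8 of these were separated, against 9.78% of all probe sets. Index changes ranged from -0.1 to 0.34 in brain and from -0.44 to 0.82 in spinal cord, where the smallest adjusted p was 0.249.

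Erc1 and Erc2, the ELKS/CAST genes, also gave no genotype call. The Erc1 level was 10.18 ± 0.0264 and 10.14 ± 0.0391 in brain and 9.85 ± 0.206 and 9.87 ± 0.0485 in spinal cord, with differences of -0.04 (interval -0.24 to 0.16) and 0.03 (interval -0.17 to 0.22). Erc2 was at 9.75 ± 0.0481 and 9.7 ± 0.137 in brain, a difference of -0.05 (interval -0.25 to 0.16). In spinal cord Erc2 was 9.95, 9.66, 9.54 and 9.72 in wild type and 9.49, 9.47, 9.62 and 9.47 in the double knockout. That difference of -0.2 (SE 0.0984, adjusted p 0.259) missed the threshold, and double knockout array 3 overlapped the wild type arrays. In the 5 genes other than Rims1 and Pclo, limma called 0 of 189 probe sets in brain (8 at an unadjusted p under 0.05) and 0 in spinal cord (22 at an unadjusted p under 0.05). The 8 and 22 are 4.23% and 11.6% of the 189. Over all 193126 probe sets 6373 in brain and 22720 in spinal cord were under that p.

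Counted over genes, limma called 0 of the 7 levels between genotypes in brain, where 0.268% of all genes were called, and 0 of 7 in spinal cord, where 5.63% were. At an unadjusted p under 0.05 Rims1 was the 1 member in each tissue, where 776 of all 14570 genes in brain and 2847 in spinal cord were under that p. The mean of the tissues called 1 of 7, Rims1, against 4.34% of all genes. In the tissue difference of the change 0 of 7 were called and 0% of all genes (1166 genes at an unadjusted p under 0.05), with adjusted p of 0.777 to 0.991 for the members.

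**Figure D4:**
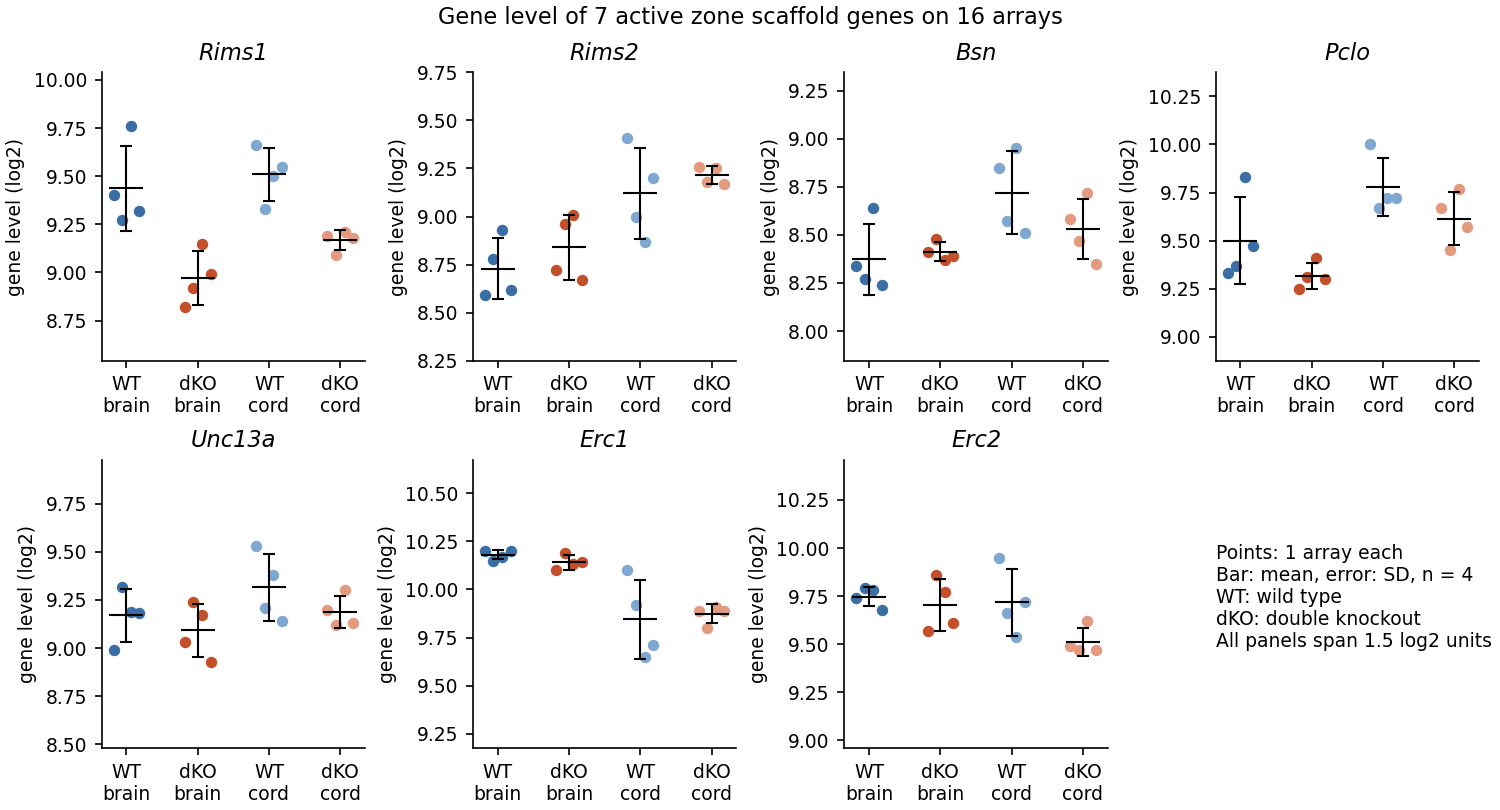
Gene level (y axis, log2 units) of each gene on the 16 arrays, with wild type (WT) left of double knockout (dKO) within brain and then within spinal cord. Points are single arrays, bars the mean and SD of 4, and every panel spans 1.5 log2 units. The genotypes are separate in both tissues for Rims1, and the other genes overlap.

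The samples' make-up moved with some of these values. In brain, number 3 gave the highest Rims1 and Pclo level of its genotype group and the lowest telencephalon marker sum. Without both number 3 arrays the Rims1 brain difference was -0.42 (adjusted p 0.145). Marker sums of other lists also did not overlap between the genotypes in brain. Schwann and ganglion markers (8 of 12 tested, 1 called, higher) summed to 1780 to 2380 in wild type and 2660 to 3060 in the double knockout, and oligodendrocyte markers (6 of 8 tested, none called) to 2520 to 2590 and 2220 to 2490. In spinal cord, 6 of 8 tested astrocyte markers, 4 of 8 microglia markers and 3 of 6 oligodendrocyte markers were called lower in the double knockout, as were 663 of all 14570 genes. There summed oligodendrocyte intensities were 2300 to 2910 in wild type and 1710 to 1910 in the double knockout, those of microglia 1870 to 2800 and 1330 to 1670, and summed astrocyte intensities were 13200 to 17400 in wild type and 8900 to 11800 in the double knockout. None of these 4 lists had a marker with a group mean under the floor. The pan-neuronal markers had a median change of -0.01 there, with 1 higher and 3 lower. The part of these differences in the scaffold genes' values was not tested. Without the 4 muscle-rich spinal cord arrays the Rims1 spinal cord difference was -0.21 (adjusted p 0.643) and that of Pclo 0.02.

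The wider release machinery, a list of 43 genes that act with the scaffolds, had 36 tested. In brain limma called none of them (median change -0.04, against 0.02 over all genes). The 3 with the smallest adjusted p there were Doc2a (-0.52, 0.105), Lin7b (-0.4, 0.49) and Cplx1 (-0.3, 0.677). In spinal cord 5 were lower and 1 higher in the double knockout, with a median of -0.2 against -0.03 over all genes. Of all 14570 genes 663 were lower and 157 higher there, 5.63% in all. Lin7b, an adaptor of the presynaptic Cask complex, fell by 1.06 (adjusted p 6.66e-05). Doc2a, a calcium sensor of vesicle release, fell by 0.95 (adjusted p 9.16e-05). Cplx1, the SNARE-binding complexin, fell by 0.86 (adjusted p 8.87e-05). These calls held in all 19 alternatives. Rph3a, the Rab3 effector rabphilin (-0.37, adjusted p 0.033), Doc2b (-0.39, adjusted p 0.0441) and Unc13b, which encodes Munc13-2 (0.37, adjusted p 0.0455), were called too, but those calls ended in 8, 9 and 10 of the 19 alternatives. With the mean of the tissues Doc2a (-0.73), Lin7b (-0.73) and Cplx1 (-0.58) were the 3 called, all lower.

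Between the wild type tissues the scaffolds differed in their direction. This comparison uses the wild type arrays of both genotype comparisons. Rims2 was higher in spinal cord than in brain by 0.39 (SE 0.119, adjusted p 0.00809), Bsn by 0.35 (SE 0.116, adjusted p 0.0155) and Pclo by 0.27 (SE 0.113, adjusted p 0.0418). Erc1 was lower in spinal cord by 0.33 (SE 0.0946, adjusted p 0.00564), and it was the 1 member whose arrays did not overlap, with 10.2, 10.15, 10.17 and 10.2 in brain and 10.1, 9.92, 9.65 and 9.71 in spinal cord. Over all genes 40.9% were separate. Unc13a (0.15, adjusted p 0.238), Rims1 (0.07, adjusted p 0.579) and Erc2 (-0.03, adjusted p 0.802) were not called.

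The 4 of 7 called stand against 60.4% of all genes, so the share is near the background, and the median gene was lower in spinal cord by -0.16. Scaling moved several of these values. After quantile normalization Erc1 differed by -0.11 (adjusted p 0.254) and was not called, Unc13a by 0.28 (adjusted p 0.00977) and was called, and Erc2 by 0.17 (adjusted p 0.104), the other direction. Without wild type brain 4 Bsn was no longer called (adjusted p 0.0516), nor was it without wild type spinal cord 3 (0.062). The Pclo call ended in 12 of 20 alternatives, among them without wild type brain 1, 2 or 4 or wild type spinal cord 1 or 4, and the Rims2 call without the muscle-rich arrays (0.21, adjusted p 0.192).

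On the exon index 51 of the 280 probe sets differed between the wild type tissues, 21 higher and 30 lower in spinal cord. That is 18.2%, near the 22% of all probe sets. Pclo had 12 lower and 1 higher, Rims1 6 higher and 5 lower, Unc13a 7 higher and 3 lower, Erc1 4 higher and 3 lower, Rims2 2 higher and 3 lower, Bsn 1 of each and Erc2 3 lower. The largest of them was in Unc13a, where probe set 5245643 rose by 1.45 from -1.75 ± 0.637 in brain to -0.29 ± 0.199 in spinal cord (adjusted p 0.00081). Unc13a probe sets 4577949 (0.56) and 4643697 (0.49) were also higher in spinal cord, and 5321162 (-0.61), 5293114 (-0.58) and 5254291 (-0.43) lower.

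The RIM genes differed between the wild type tissues at single probe sets. Rims1 probe set 4982936 was at -2.68 ± 0.301 in brain and -1.63 ± 0.185 in spinal cord, a difference of 1.05 (adjusted p 0.000994), and 4572332 (0.7) and 4348788 (0.69) were higher as well. With a Rims1 level of 9.44 in wild type brain, the brain signal of 4982936 lay near the floor of 6.73. Rims1 probe sets 5120925 (-0.61), 4806821 (-0.58) and 5508491 (-0.53) were lower in spinal cord. Rims2 probe set 4424597 was at 1.75 ± 0.0938 in brain and 0.99 ± 0.199 in spinal cord, a difference of -0.76 (adjusted p 0.000888). Rims2 5373916 (-0.49) and 5358627 (-0.33) were lower, and 5186982 (0.39) and 4568397 (0.53) higher.

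Bassoon and Piccolo each had one large regional probe set or more. Bsn probe set 4433404 was at 1.8 ± 0.173 in brain and 0.91 ± 0.311 in spinal cord (-0.89, adjusted p 0.00104), and 4883620 rose by 0.31. Pclo probe set 5471485, one of those higher in the double knockout by the mean of the tissues, was at 0.35 ± 0.264 in wild type brain and -0.65 ± 0.381 in wild type spinal cord (-1.01, adjusted p 0.000631). Pclo 5373028 (-1.03) and 5501558 (-0.95) were lower in spinal cord and 4390718 higher (0.38).

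Among the ELKS/CAST genes, Erc1 probe set 4875636 was at -3.27 ± 0.123 in brain and -2.4 ± 0.0864 in spinal cord, a rise of 0.87 (adjusted p 0.000154). Erc1 4913667 (1.24) and 5191067 (0.98) were higher and 4567063 (-0.86), 5196855 (-0.34) and 5284100 (-0.26) lower. With an Erc1 level of 10.18 in wild type brain, the brain signals of 4875636 and 4913667 lay near the floor of 6.73. Erc2 probe set 5257408 was at 1.68 ± 0.111 in brain and 0.92 ± 0.0979 in spinal cord, a fall of 0.76 (adjusted p 0.000155), and 5541523 (-0.5) and 4569307 (-0.23) were lower too. In the release machinery list 9 of 36 genes were higher and 9 lower in wild type spinal cord, a smaller share than the 60.4% called over all genes. The 6 with the smallest adjusted p were Ppfia4 (0.8), Cplx1 (0.62) and Unc13c (0.69), which were higher, and Syt1 (-0.62), Cplx2 (-0.88) and Ppfia2 (-0.55), which were lower.

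Across the 8 arrays of a tissue, both genotypes included, the members' levels followed different genes. The genes named were picked by the lower of their brain and spinal cord r, so high values were selected for. Predicted clone genes were skipped. Rims1 was most like Disp2 (r 0.97 in brain and 0.97 in spinal cord) and Camta1 (0.96 and 0.96). Pclo was most like B4galt6 (0.92 and 0.95) and Cacna1g (0.92 and 0.92), and Rims2 most like Unc13c (0.9 and 0.86) and Wrn (0.91 and 0.85). For Erc2 they were Mfsd6 (0.89 and 0.93) and Ece2 (0.88 and 0.85), for Unc13a Capn7 (0.88 and 0.88) and Il1rapl1 (0.86 and 0.88), for Bsn Plekhh1 (0.88 and 0.87) and Lrrc39 (0.85 and 0.97), and for Erc1 Acat3 (0.78 and 0.66) and Shroom1 (0.69 and 0.65). Among the members, Rims1 and Pclo had an r of 0.87 in brain and 0.79 in spinal cord, while Rims1 and Rims2 had 0.04 and 0.05. These r are Pearson's and include the genotype difference, and the arrays share their depth and make-up.

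The 21 member probe sets below the floor had group means of 4 to 7.54. None of them was separated between genotypes in either tissue, and their own log2 differences ranged from -0.51 to 0.14 in brain and from -0.58 to 0.76 in spinal cord.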

How the data were processed

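The authors deposited 1 intensity per probe set and array on a linear scale, and the submitters' processing notes name PLIER, Affymetrix Power Tools and build mm8. Further settings were not given in the sources used here. Of 625534 probe sets 303629 carried 1 gene symbol in the platform annotation and 5892 several, which were left out. Computed here were log2(intensity + 16), a floor (6.73, the median over probe sets of their mean log2 value), gene levels from at least 3 probe sets and exon indices for genes with at least 5 (12340 genes). Groups came from the labels. One limma fit (limma 3.58.1, R 4.3.3, data handling with data.table, version 1.17.8) over all 16 arrays, tested on simulated data, gave each comparison. Probe sets were named where called: all up to 6 a gene, otherwise the 3 largest rises and falls. Release genes were named up to 6 a comparison by adjusted p, and the 2 most alike genes a member. The members, lists and tests were chosen with earlier results of these data known.

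The number of arrays limits the precision. Same-numbered arrays deviated together in brain (r of 0.21, 0.41, 0.35 and 0.27 between genotypes), which was taken as a possible pairing there. The best r with another number was 0.17, 0.2, 0.2 and 0.09. In spinal cord same-numbered arrays did not deviate together (-0.02, -0.12, -0.04 and 0). The labels do not state a pairing, and brains 1 and 4 differed in sex between the genotypes. The main fit had no term for pairs, and the replicate block entered only as an alternative. By Xist and Y-linked genes, 2 of 4 wild type brains, 0 of 4 double knockout brains, 2 of 4 wild type cords and 1 of 4 double knockout cords were male. Alternatives were other pseudocounts, floors and gene summaries, quantile normalization, fits within a tissue, a replicate block, a sex term and left-out arrays.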

Additional observations from a re-analysis of the deposited data

Results flagged for a closer look

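Gaps between arrays of a group were examined in 116 groups of 4, of which about 5.8 would be expected to pass Dixon's limit at 1 in 20, and 5 did. The Pclo level of wild type spinal cord 1 was 10, and the other 3 arrays lay at 9.67 to 9.72. The Erc2 level of double knockout spinal cord 3 was 9.62, with the others at 9.47 to 9.49. The index of Rims1 probe set 5504052 in double knockout spinal cord 3 was 1.38, with the others at 1.6 to 1.64. The index of Pclo probe set 4509783 in wild type spinal cord 1 was -1.16, with the others at -1.6 to -1.53. The index of Pclo probe set 5260711 in wild type brain 1 was -1.89, with the others at -2.13 to -2.12.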

How the results depend on the processing

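Among the 7 gene levels, the count called with the replicate block was 1 in brain and 1 in spinal cord in place of 0 (Rims1 each time, adjusted p 0.0483 and 0.0349; the numbers do not pair the spinal cord arrays). For the mean of the tissues it was 0 without a floor and 0 without the 4 muscle-rich spinal cord arrays. Between the wild type tissues it was 2 without those arrays and 2 to 4 when single arrays were left out. On the exon index the member probe sets called in brain were 4 with brain arrays alone, 5 without both number 3 arrays and 6 to 8 without single arrays. In spinal cord they were 6 with spinal cord arrays alone, 1 without the muscle-rich arrays and 7 to 10 without single arrays. Between the wild type tissues they were 33 with wild type arrays alone and 33 without the muscle-rich arrays, and for the mean of the tissues 14 with the block and 13 without the muscle-rich arrays. Uncalled differences changed sign as follows. In brain, Rims2 was -0.01 with a sex term, Bsn 0 as a mean over probe sets, -0.01 with a sex term and 0 to 0.13 without single arrays, and Erc1 0.02 without a floor and 0.02 with a floor at the 75th percentile. In spinal cord, Pclo was 0.02 without the muscle-rich arrays, and Erc1 -0.12 without a floor, -0.1 with the higher floor, -0.01 as a mean and -0.04 to 0.11 without single arrays. Between the wild type tissues Rims1 was -0.02 without the muscle-rich arrays, and Erc2 0.17 after quantile normalization and -0.11 to 0.03 without single arrays. In the tissue difference of the change the sign turned in 12 of 27 alternatives for Rims2, 6 for Pclo, 4 for Unc13a, 2 for Erc1 and 2 for Erc2, and in the mean of the tissues in 6 of 27 for Erc1. The cause was not tested. Over all genes, quantile normalization gave 1620 calls in spinal cord in place of 820, and leaving out the muscle-rich arrays 100. The called genotype changes of Rims1 and Pclo probe sets reversed in none of these refits; for Rims1, 74 of 78 brain and 56 of 78 spinal cord refits kept the call, and for Pclo 31 of 46 and 73 of 93. The files give no slide or scan batch, and 4 arrays a group with dim probe sets near the floor limit what can be detected.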
